A study of Mus musculus with 3 samples.

Results

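The 8 genes described here, Ms4a4a, Ms4a4c, Ms4a6b, Ms4a6c, Ms4a6d, Ms4a7, Ms4a8a and Ms4a14, belong to the Ms4a family and were matched by gene name among the 31053 genes of the count tables, which hold 19 Ms4a names in all. The cells were monocytes and macrophages of wounded skin, isolated at day 3, day 6 or day 10 after injury from male mice of the inbred strain C57BL6/J, and were profiled singly by 10x Chromium RNA sequencing. No further allele or agent is given for any group, and the sources used here give neither the age of the mice nor the markers used for the isolation. Each day is 1 library made from a pool of 2 mice, so no replicate exists within a day and no test between days was possible. Libraries held 1472, 1196 and 2209 barcodes on days 3, 6 and 10, of which 900, 598 and 1362 were kept, each with 200 or more genes detected and less than 10% of its transcripts mitochondrial. Kept cells had a median of 10629, 11778.5 and 8285 unique molecular identifiers (UMIs, each counting 1 captured transcript), and 2 barcodes occurred in more than 1 library.

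MS4A proteins cross the plasma membrane several times and are mostly found on cells of the blood lineages, where several sit beside receptors and tune their signalling. The best known are CD20 of B cells, encoded by Ms4a1, and the beta chain of the high-affinity IgE receptor of mast cells, encoded by Ms4a2. In macrophages, MS4A4A is known as a partner of the beta-glucan receptor dectin-1, and variants near human MS4A genes are known for their link to the amount of soluble TREM2, a lipid-sensing receptor. Wound monocytes enter from the blood and can become macrophages or dendritic cells, so a gene of this family can be followed along those changes of state.

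Cells were therefore grouped by UMIs of 3 genes: Ly6c2, which encodes the surface protein Ly6C of classical monocytes, C1qa, which encodes a chain of complement C1q made by macrophages, and Cd209a, which encodes a lectin of monocyte-derived and type 2 dendritic cells. The Ly6c2 gate (at least 2 Ly6c2 UMIs, under 5 C1qa and under 2 Cd209a UMIs) held 369 cells on day 3, 23 on day 6 and 80 on day 10. The C1qa gate (at least 5 C1qa UMIs, under 2 Ly6c2 and under 2 Cd209a UMIs) held 59, 226 and 541 cells, and the Cd209a gate (at least 2 Cd209a UMIs, under 5 C1qa UMIs) held 129, 109 and 168. A double gate with both Ly6c2 and C1qa at or over their limits held 47, 10 and 3 cells, a few cells (3, 3 and 6) reached the limits of both C1qa and Cd209a, and 293, 227 and 564 met none of these definitions. Near the limits, 161 cells had 1 Ly6c2 UMI and 84 had 2, 56 cells had 4 C1qa UMIs and 56 had 5, and 56 cells had 1 Cd209a UMI and 25 had 2.

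Marker lists were summed without the gate genes. A list of 6 classical monocyte genes summed to between 5267 and 7644 CPM (counts per 1000000, the UMIs of a gene or list scaled to 1000000 UMIs of the summed cells) in the Ly6c2 gate and to between 1190 and 3566 in the C1qa gate over the 3 days. A list of 7 macrophage genes summed to between 13655 and 23660 CPM in the C1qa gate and to between 3691 and 3866 in the Ly6c2 gate. A list of 6 dendritic cell genes summed to between 36794 and 46231 CPM in the Cd209a gate, and to at most 9058 in the C1qa gate and 5528 in the Ly6c2 gate. The small Ly6c2 gate of day 6 also held neutrophil transcripts, with a 6-gene list at 2535 CPM against 149 on day 3 and 93.1 on day 10, although Ly6g was at 0. It also included 1 cell with natural killer transcripts, and the part of both in the day 6 values was not tested. In the C1qa gate of day 6, 3 haemoglobin genes summed to 3149 CPM, against at most 1.78 on the other days, and their part in the results was not tested either.

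The 8 genes lie in a single cluster on mouse chromosome 19. In the mm10 build (GRCm38, GENCODE vM21 annotation) the 19 Ms4a genes span chr19:10962293-11640851, all 8 members are annotated as protein-coding, and their order along the chromosome is Ms4a8a (chr19:11067471-11081102), Ms4a14 (chr19:11301249-11314454), Ms4a7 (chr19:11321039-11336146), Ms4a4a (chr19:11375523-11392790), Ms4a4c (chr19:11404770-11427246), Ms4a6c (chr19:11469366-11482192), Ms4a6b (chr19:11516512-11531256) and Ms4a6d (chr19:11586604-11604849). Ms4a8a, Ms4a14, Ms4a7 and Ms4a6d are on the minus strand. Between Ms4a4c and Ms4a6c lies Ms4a4b (chr19:11443553-11467055), the gene closest to Ms4a4c in sequence, known from T cells. Over all annotated transcripts of each gene, the longest identical run shared by Ms4a4c and Ms4a4b had 127 bases. That of Ms4a6b and Ms4a6c had 96 bases, and that of Ms4a6b and Ms4a6d 81 bases. The sources used here do not say how the counting assigned reads from such runs, so the division of UMIs within these pairs is uncertain.

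The similarity reaches into the promoters of 2 of these pairs, which are printed because the genes of each pair also had like profiles (Pearson r of 0.93 for Ms4a6b with Ms4a6c and 0.91 for Ms4a4c with Ms4a4b over 13 library-and-gate sums, a description across sums that share libraries). Each window runs from 250 bases before to 50 bases after a RefSeq transcript start in GRCm38.p6, on the plus strand, 5′ to 3′. The windows are chr19:11518309-11518608 for Ms4a6b, chr19:11469118-11469417 for Ms4a6c, chr19:11443308-11443607 for Ms4a4b and chr19:11407411-11407710 for Ms4a4c. Capitals mark the longest runs that both windows of a pair hold, which are 1 run of 48 bases for Ms4a6b and Ms4a6c and 2 runs of 20 bases for Ms4a4b and Ms4a4c.
Ms4a6b: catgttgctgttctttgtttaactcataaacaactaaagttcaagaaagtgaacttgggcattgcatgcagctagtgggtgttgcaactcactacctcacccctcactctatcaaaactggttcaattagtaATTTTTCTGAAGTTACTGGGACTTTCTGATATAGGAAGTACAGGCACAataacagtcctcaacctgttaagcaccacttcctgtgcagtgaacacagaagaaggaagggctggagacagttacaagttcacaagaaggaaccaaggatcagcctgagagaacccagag
Ms4a6c: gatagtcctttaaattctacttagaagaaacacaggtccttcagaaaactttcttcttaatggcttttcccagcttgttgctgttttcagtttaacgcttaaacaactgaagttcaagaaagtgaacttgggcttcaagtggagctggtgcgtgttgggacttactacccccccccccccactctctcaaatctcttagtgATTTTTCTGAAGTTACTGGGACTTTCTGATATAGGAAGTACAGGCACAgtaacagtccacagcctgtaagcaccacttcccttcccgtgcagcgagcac
Ms4a4b: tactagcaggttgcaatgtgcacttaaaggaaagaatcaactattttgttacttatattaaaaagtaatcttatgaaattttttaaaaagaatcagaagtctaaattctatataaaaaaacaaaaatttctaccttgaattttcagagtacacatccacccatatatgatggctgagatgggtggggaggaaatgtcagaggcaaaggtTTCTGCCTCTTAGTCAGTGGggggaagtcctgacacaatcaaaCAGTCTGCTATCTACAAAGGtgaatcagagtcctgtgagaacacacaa
Ms4a4c: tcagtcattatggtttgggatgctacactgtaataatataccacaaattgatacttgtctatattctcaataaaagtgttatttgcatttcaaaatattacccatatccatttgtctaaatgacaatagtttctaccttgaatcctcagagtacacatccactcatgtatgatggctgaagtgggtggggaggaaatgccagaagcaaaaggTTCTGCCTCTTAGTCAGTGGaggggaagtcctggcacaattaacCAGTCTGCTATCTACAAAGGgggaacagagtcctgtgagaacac
Each of the 3 runs occurred in only the 2 windows of its pair among the 32851 windows of the RefSeq table (0.00609%). Relative to the annotated starts, the 48-base run begins at −118 in Ms4a6b and at −49 in Ms4a6c, and the 20-base runs begin at −41 and 3 in Ms4a4b and at −38 and 7 in Ms4a4c. On either strand, an interferon response element (GAAA, 2 free bases, GAAA), GAGGAAGT (a PU.1 element), TTGCNNAA (a C/EBP element) and TTCNNNGAA (a gamma-activated element) were found in none of the members' windows that the table holds, and in 3.44%, 3.20%, 10.8% and 8.30% of all windows. Ms4a6d is named only, without a window.

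Over all kept cells, 2 of the 8 members were at least 1.5-fold higher on day 10 than on day 3 (Ms4a7 and Ms4a14) and 5 were at least 1.5-fold lower (Ms4a4c, Ms4a6b, Ms4a6c, Ms4a6d and Ms4a8a). Of all genes with at least 20 UMIs over both libraries, 24.6% were that much higher and 8.94% that much lower. The members' median log2 ratio was −1.14, against 0.17 over all genes compared. Ms4a4a, at 24.3, 16.9 and 18.98 CPM on days 3, 6 and 10, was 1.28-fold lower on day 10 (95% interval 1.06 to 1.54, counting error only, as for all intervals of ratios here). The same 2 members were higher and the same 5 lower on day 6 than on day 3, against 28.6% and 7.79% of all genes, with Ms4a7 and Ms4a14 each 4.28-fold higher and Ms4a4c 4.58-fold lower. Between days 6 and 10, 0 were higher and 3 lower (Ms4a4c, Ms4a6b and Ms4a8a, by 1.57-fold to 1.61-fold), against 5.87% and 10.3%. The mix of cells changed over the same days, since the Ly6c2 gate held 41.0% of kept cells on day 3 and 5.87% on day 10 while the C1qa gate held 6.56% and 39.7%. The levels inside the gates are therefore given for each member.

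**Figure D1:**
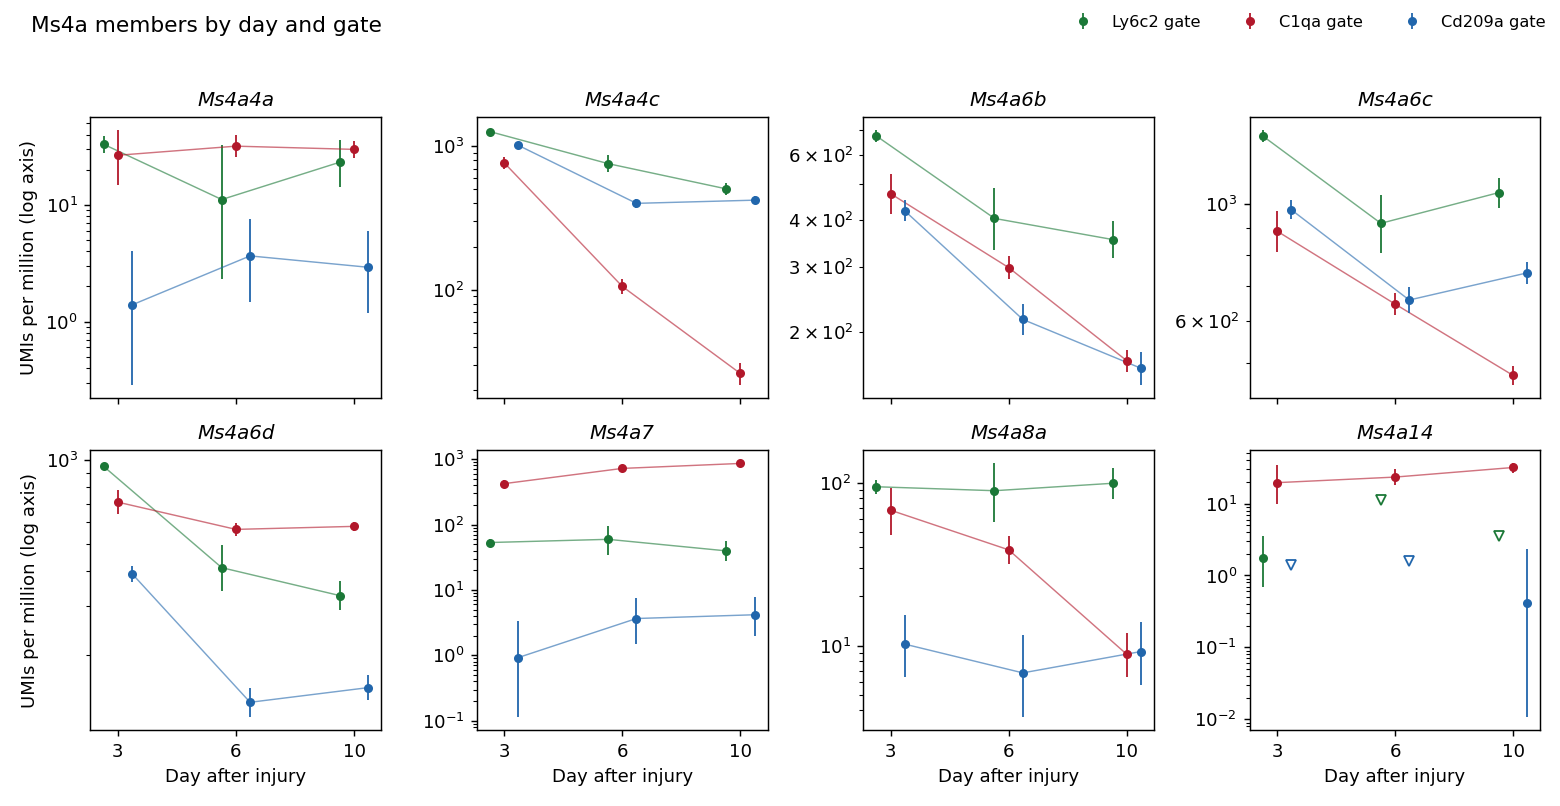
Level of each of the 8 members in CPM (log axis) on days 3, 6 and 10 inside the Ly6c2, C1qa and Cd209a gates, with Poisson 95% intervals; an open triangle marks the level of 3 UMIs where no UMI was counted. Ms4a7 lay between 422 and 859 in the C1qa gate and at no more than 4.17 in the Cd209a gate, and Ms4a4c in the C1qa gate went from 767 on day 3 to 26.1 on day 10.

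Ms4a7 and Ms4a14, neighbours on the chromosome, were the members that marked the C1qa gate. Ms4a7 was counted at 422 CPM on day 3, 721 on day 6 and 859 on day 10 in the C1qa gate, at 53.1, 59.4 and 39.6 in the Ly6c2 gate, and at 0.93, 3.66 and 4.17 in the Cd209a gate. The 3 gates did not overlap on any day. The ratio of the C1qa to the Ly6c2 gate was 7.95 on day 3 (6.58 to 9.61), 12.1 on day 6 (7.45 to 21.3) and 21.7 on day 10 (15.5 to 31.4). With the 3 libraries as replicates of the contrast, edgeR's quasi-likelihood test gave a log2 fold change of 3.46 ± 0.28 (SE) and an adjusted p of 1.47e-05 (Benjamini-Hochberg over 10315 genes). Because the libraries are different days, the spread behind this p includes how the contrast differed between days. It is also drawn from all 4 gates of the fit, so the p does not measure the steadiness of this contrast alone. With only these 2 gates fitted, the edgeR adjusted p was 0.000678. Against the C1qa gate, the Cd209a gate had a log2 fold change of −7.63 ± 0.36 in the same edgeR fit (adjusted p = 1.56e-08), which is the largest such value among the members. Ms4a7 had 2, 7 and 10 UMIs in the Cd209a sums and passed the filter on low counts through the gates where it is higher. Its calls with the Cd209a gate therefore add no support to these levels.

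Ms4a14 was sparse but followed the same gate. It had 11, 63 and 155 UMIs in the C1qa gate on days 3, 6 and 10 (19.6, 23.4 and 31.8 CPM), 7, 0 and 0 UMIs in the Ly6c2 gate, and 0, 0 and 1 UMI in the Cd209a gate. The C1qa gate was 11.2-fold higher than the Ly6c2 gate on day 3 (3.97 to 34.1). With each empty Ly6c2 sum set to the floor of 3 UMIs, the ratio was 2.10 on day 6 and 9.12 on day 10 (3.06 to 44.7). The day 6 interval (0.687 to 10.5) includes no difference. Ms4a14 passed the filter on low counts through the C1qa gate, where it is high, so its edgeR calls against that gate had to follow and are no support. The fitted log2 value of 4.04 also depends on the prior count, because 2 of the Ly6c2 sums were at 0, and was 8.98 without day 3. The share of its UMIs that came from the C1qa gate was 40.7%, 73.3% and 77.5% on days 3, 6 and 10. That of Ms4a7 was 31.4%, 80.8% and 83.4%. The gate itself held 6.56%, 37.8% and 39.7% of kept cells on those days. The larger shares on later days therefore do not show a closer restriction to the gate.

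Along C1qa itself, without the limit at 5 UMIs, Ms4a7 was higher in each next bin. Among cells with under 2 Cd209a UMIs on day 10, it was at 131 CPM in cells without C1qa, then at 234, 530, 1001 and 1450 in bins of up to 5, 20, 50 and over 50 C1qa UMIs per 10000. On day 6 the same bins held 138, 206, 386, 695 and 1343, and on day 3 they held 62.8, 114, 134, 413 and 561, the last from 11 cells. Each day's order was the same, and the day 3 level was under those of days 6 and 10 in all 5 bins. On day 3, however, the interval of bin 2 (88.8 to 144) overlapped that of bin 3 (106 to 169). The interval of bin 4 (354 to 479) likewise overlapped that of bin 5 (429 to 721). Ms4a14 on day 10 went from 6.38 to 11.03, 20.4, 37.8 and 57.2 over the bins. On day 6 its 3 middle bins did not differ beyond their intervals, at 17.2, 16.7 and 16.7.

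**Figure D2:**
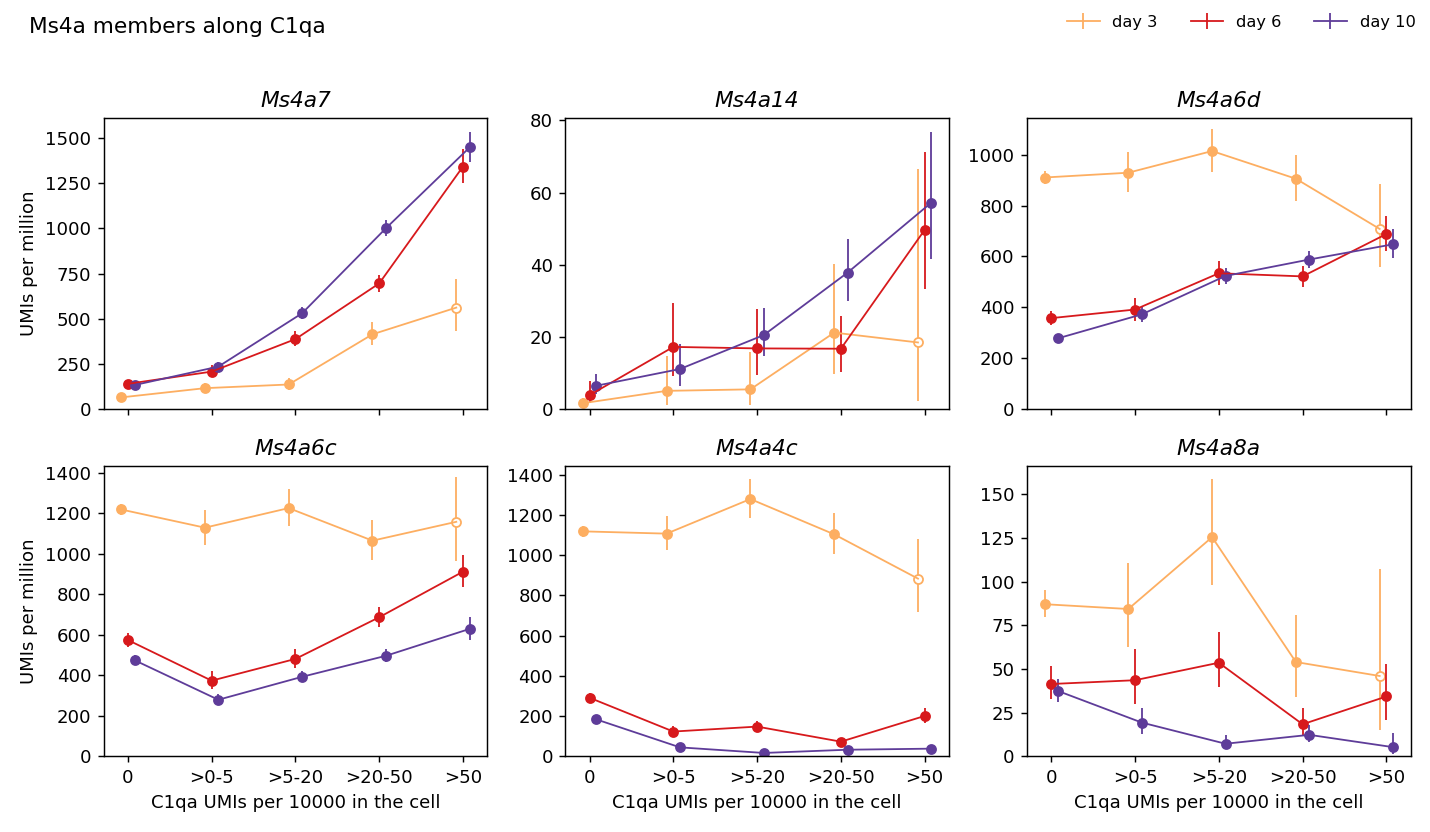
Level in CPM of Ms4a7, Ms4a14, Ms4a6d, Ms4a6c, Ms4a4c and Ms4a8a over 5 bins of C1qa UMIs per 10000 among cells with under 2 Cd209a UMIs, by day, with Poisson 95% intervals; an open point marks a bin of under 20 cells. Ms4a7 was higher in each next bin on all 3 days, with some overlapping intervals on day 3. Ms4a4c on day 3 stayed between 883 and 1278. On day 10 Ms4a4c was at 183 in cells without C1qa and at no more than 44.1 in the others.

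Ms4a4c had the widest range inside the C1qa gate. It was counted there at 767, 106 and 26.1 CPM on days 3, 6 and 10. In the Ly6c2 gate it was at 1266, 757 and 505, and in the Cd209a gate at 1015, 400 and 421. All 3 gates were highest on day 3, and within each day the C1qa gate was the lowest of the 3. The C1qa gate was 1.65-fold lower than the Ly6c2 gate on day 3 (1.495 to 1.82), 7.18-fold lower on day 6 (5.97 to 8.62) and 19.4-fold lower on day 10 (15.9 to 23.8). The edgeR quasi-likelihood test gave −2.49 ± 0.54 on the log2 scale (adjusted p = 0.0108). That call held under 13 of 16 alternative settings. The losses included the edgeR fits without day 6 (adjusted p = 0.0942) and without the library as a block (adjusted p = 0.275). The log2 value was −3.59 without day 3 and −1.81 without day 10. Against the C1qa gate the Cd209a gate was higher by 2.03 ± 0.53 (edgeR adjusted p = 0.00907), a call also lost without day 6 (adjusted p = 0.0665) and without the library as a block (adjusted p = 0.339), with a log2 value of 3.04 without day 3 and 1.22 without day 10. The Cd209a gate against the Ly6c2 gate gave −0.46 ± 0.48 (edgeR adjusted p = 0.586).

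Individual cells of the C1qa gate were also read for both genes, after each cell was thinned to 2000 UMIs so that depth was equal. Cells with a UMI of both Ms4a4c and Ms4a7 were 17 of 59 on day 3 (28.8%, exact 95% interval 17.8 to 42.1), 10 of 220 on day 6 (4.55%) and 7 of 530 on day 10 (1.32%, 0.533 to 2.70). Cells with Ms4a7 alone were 16.9%, 53.2% and 67.4%, and cells with Ms4a4c alone were 30.5%, 5.91% and 1.13%. Each share describes cells of 1 library, and its interval covers counting error over those cells, not a difference between days. The shares also depend on the thinning depth, and these classes were read at no other depth. A UMI in a droplet can come from free RNA, and no background share was available for Ms4a4c, so these are cells with a UMI of each gene.

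Ms4a6b, Ms4a6c and Ms4a6d, 3 related genes at the far end of the cluster, were broadly expressed. Ms4a6b was at 674, 405 and 355 CPM in the Ly6c2 gate on days 3, 6 and 10, at 472, 298 and 168 in the C1qa gate and at 424, 216 and 160 in the Cd209a gate. Ms4a6c was at 1349, 920 and 1053 in the Ly6c2 gate, at 890, 646 and 473 in the C1qa gate and at 977, 658 and 741 in the Cd209a gate. For both, the Ly6c2 gate was the highest of the 3 on every day. In the C1qa gate against the Ly6c2 gate, Ms4a6c had a log2 fold change of −0.89 ± 0.17 (edgeR adjusted p = 0.00665) and Ms4a6b one of −0.82 ± 0.18 (edgeR adjusted p = 0.0128). The Ms4a6b call held under 12 of 16 alternative settings. Its losses included the edgeR fits without day 6 (adjusted p = 0.0524), without day 10 (adjusted p = 0.106) and without the library as a block (adjusted p = 0.294). The Ms4a6c call was lost without the block (edgeR adjusted p = 0.0912).

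Ms4a6d, known from macrophages, differed from its relatives. It was at 952, 412 and 327 CPM in the Ly6c2 gate on days 3, 6 and 10, and at 708, 565 and 580 in the C1qa gate. The Cd209a gate was the lowest on every day, at 392, 135 and 153. The C1qa gate was 1.34-fold lower than the Ly6c2 gate on day 3 (1.21 to 1.49), 1.37-fold higher on day 6 (1.13 to 1.68) and 1.77-fold higher on day 10 (1.57 to 2.01). Over the 3 days the edgeR test gave 0.18 ± 0.23 (adjusted p = 0.687). The Cd209a gate had a log2 fold change of −1.30 ± 0.23 against the Ly6c2 gate (edgeR adjusted p = 0.0015) and of −1.48 ± 0.23 against the C1qa gate (edgeR adjusted p = 0.00027), and both calls were lost without the library as a block (adjusted p = 0.0886 and 0.0581). Along the C1qa bins it was at 277, 372, 523, 588 and 648 on day 10, and at 911, 929, 1015, 906 and 708 on day 3.

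Ms4a8a, which lies at the other end of the cluster from Ms4a6d and is known from some macrophage populations, was at 94.2, 89.1 and 98.9 CPM in the Ly6c2 gate on days 3, 6 and 10. It was at 67.6, 38.6 and 8.83 in the C1qa gate and at 10.2, 6.79 and 9.18 in the Cd209a gate. The Ly6c2 gate thus stayed within a narrow range over the days while the C1qa gate was lower on each later day. The C1qa gate was 11.2-fold lower than the Ly6c2 gate on day 10 (7.68 to 16.6) and 1.39-fold lower on day 3, with an interval that includes no difference (0.996 to 1.999). The edgeR test gave −1.83 ± 0.45 (adjusted p = 0.0202). The value was −2.48 without day 3, and the call was lost without day 6 (adjusted p = 0.0510), without day 10 (−0.92, adjusted p = 0.117) and under 4 other settings (adjusted p of 0.0510 to 0.0757).

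Ms4a4a, the dectin-1 partner, was shared by the Ly6c2 and C1qa gates and near the counting floor in the Cd209a gate. It was at 33.1, 11.1 and 23.3 CPM in the Ly6c2 gate (the day 6 value from 3 UMIs), at 26.7, 31.9 and 30.0 in the C1qa gate, and at 1.39, 3.66 and 2.92 in the Cd209a gate (3, 7 and 7 UMIs). The C1qa gate against the Ly6c2 gate gave a log2 fold change of 0.06 ± 0.32 (edgeR adjusted p = 0.948). The Cd209a gate had a log2 fold change of −3.28 ± 0.41 against the Ly6c2 gate (edgeR adjusted p = 9.43e-05, and −2.59 on the log2 scale without day 3) and of −3.33 ± 0.38 against the C1qa gate (edgeR adjusted p = 2.11e-05). Ms4a4a passed the filter on low counts through the gates where it is higher, so these calls with the Cd209a gate add no support to the levels.

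**Figure D3:**
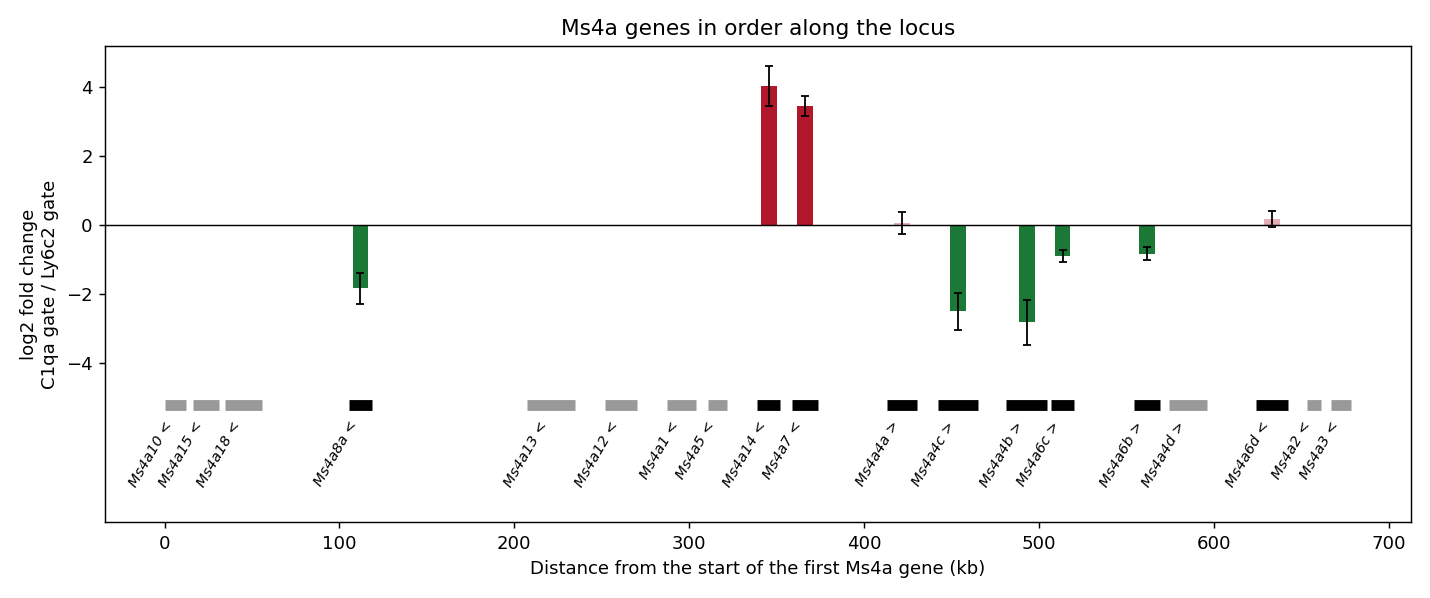
edgeR log2 fold change of the C1qa gate against the Ly6c2 gate, with its standard error, for the tested Ms4a genes, placed above the 19 Ms4a genes in their order along the chromosome (black boxes tested, grey boxes not tested, > and < for strand, pale bars not called). Ms4a14 and Ms4a7 stand next to each other at 4.04 and 3.46, while Ms4a4c and Ms4a4b stand next to each other at −2.49 and −2.81.

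Counted over the family, the C1qa gate had 2 of 8 members called higher and 4 called lower than the Ly6c2 gate. Of all genes tested, 5% were called higher and 5.75% lower. Ms4a14 was among the higher, and its call had to follow from the filter and is no support. The members' median was −0.38, or −0.82 without Ms4a14, and that of all genes 0.03. In the Cd209a gate against the Ly6c2 gate, 0 of 8 were called higher and 5 lower (Ms4a7, Ms4a8a, Ms4a4a, Ms4a6d and Ms4a6b), against 7.89% and 10.1% of all genes. The calls of Ms4a6b and Ms4a6d were lost without the library as a block (adjusted p = 0.257 and 0.0886). Ms4a7 and Ms4a4a passed the filter on low counts through the gates where they are higher, so their calls are no support. The median was −2.01 with Ms4a14 and −1.30 without it, and all genes tested had a median of 0.02. Ms4a14 has 8 UMIs in these 6 sums together, and its sign turned from −2.73 to 2.49 without day 3. Against the C1qa gate, the Cd209a gate had 1 member called higher (Ms4a4c) and 5 lower (Ms4a7, Ms4a14, Ms4a4a, Ms4a8a and Ms4a6d). Of all genes, 16.4% were called higher and 17.6% lower. The Ms4a14 call had to follow from the filter on low counts and is no support. Ms4a7 and Ms4a4a also passed that filter only outside the Cd209a gate, and their calls in this contrast add no support. The members' median was −1.53, or −1.48 without Ms4a14, and that of all genes 0.00. The Ms4a8a call in that contrast was lost without day 3 (adjusted p = 0.133), without day 6 (adjusted p = 0.204) and with a mitochondrial limit of 5% (adjusted p = 0.0721), and its log2 value of −1.58 was −2.41 without day 10.

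Cells of the double gate on day 3, which carry both Ly6c2 and C1qa, held Ms4a4c and the 3 Ms4a6 genes above their level in the C1qa gate of that day. Ms4a4c was at 1540 CPM, Ms4a6b at 903, Ms4a6c at 1410, Ms4a6d at 1165, Ms4a7 at 125, Ms4a8a at 95.8, Ms4a4a at 36.9 and Ms4a14 at 5.53. Ms4a7 was thus 2.36-fold higher than in the Ly6c2 gate of that day (1.77 to 3.12) and 3.37-fold lower than in the C1qa gate (2.56 to 4.48). Ms4a4c was 2.01-fold, Ms4a6b 1.91-fold, Ms4a6d 1.64-fold and Ms4a6c 1.58-fold higher than in the C1qa gate of that day. The edgeR test, which had a lone sum for this gate and takes its spread from the others, called 0 of 8 members against the Ly6c2 gate (0.0291% of all genes higher and 0% lower) and 0 of 8 against the C1qa gate (0.0194% and 0%). At an unadjusted p under 0.05 the first contrast held 1 member and the second 4, counts that rest on the lone sum and support no difference. DESeq2 called none of the members in either contrast.

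Between days within a gate, the gates were compared only where both libraries held at least 50 cells. In the C1qa gate, Ms4a4c was 29.4-fold lower on day 10 than on day 3 (24.1 to 36.1), Ms4a8a 7.66-fold lower (4.82 to 12.1), Ms4a6b 2.81-fold lower (2.44 to 3.24) and Ms4a6c 1.88-fold lower (1.70 to 2.07). Ms4a7 was 2.04-fold higher (1.79 to 2.33) and Ms4a14 1.63-fold higher with an interval that includes no difference (0.884 to 3.32). These 2 higher and 4 lower of 8 compare with 19.7% and 15.6% of all genes. For Ms4a8a the larger step lay between days 6 and 10 (4.38-fold lower), whereas Ms4a4c was 7.27-fold lower on day 6 than on day 3 and a further 4.05-fold lower on day 10. On day 6 against day 3, 1 of 8 members was higher (Ms4a7) and 3 lower (Ms4a4c, Ms4a6b and Ms4a8a) in this gate, against 24.8% and 10.6% of all genes. Between days 6 and 10, 0 of 8 members were higher and 3 lower, against 7.43% and 13.6% of all genes.

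In the Ly6c2 gate, 0 of the 7 members that passed 20 UMIs were higher on day 10 and 3 were lower, namely Ms4a6d by 2.91-fold (2.58 to 3.30), Ms4a4c by 2.51-fold (2.27 to 2.77) and Ms4a6b by 1.90-fold (1.69 to 2.14), against 14.6% and 18.8% of all genes. Ms4a8a did not differ beyond counting error (1.05-fold higher, 0.820 to 1.33), and neither did Ms4a7 (1.34-fold lower, 0.931 to 1.99). In the Cd209a gate, 0 of the 5 members that passed were higher and 3 lower, namely Ms4a6b by 2.65-fold, Ms4a6d by 2.57-fold and Ms4a4c by 2.41-fold, against 12.5% and 10.4% of all genes. On day 6 against day 3 the Cd209a gate had 0 members higher and 4 lower, against 17.8% and 9.45%, and on day 10 against day 6 it had 0 higher and 0 lower, against 7.26% and 13.7%. Ms4a6c on day 10 against day 3 was lower by 1.28-fold in the Ly6c2 gate and by 1.32-fold in the Cd209a gate. Ms4a6d was thus over 2-fold lower on day 10 in the Ly6c2 and Cd209a gates and 1.22-fold lower in the C1qa gate (1.10 to 1.36). Whether these ratios differ between gates was not tested, since each day is 1 library.

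**Figure D4:**
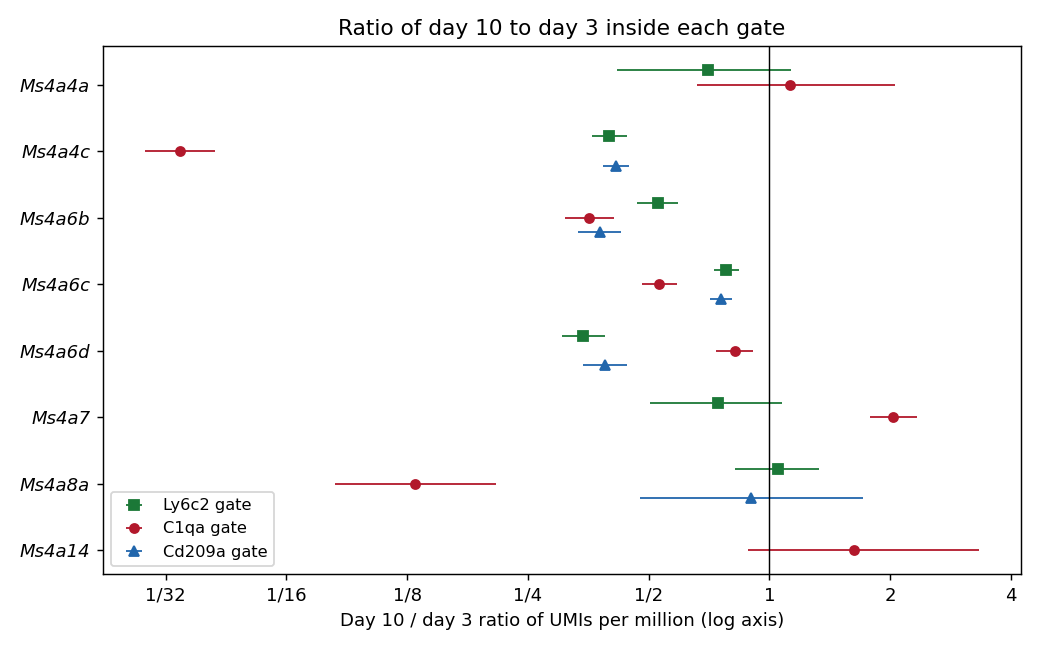
Ratio of day 10 to day 3 (log axis, with counting 95% intervals) of each member inside the Ly6c2, C1qa and Cd209a gates, shown where both days together held at least 20 UMIs. Ms4a4c lies lowest in the C1qa gate, 29.4-fold lower on day 10, and Ms4a7 lies above 1 in the C1qa gate, 2.04-fold higher.

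Cells outside all gates, which had neither enough Ly6c2 nor enough C1qa or Cd209a, held both Ms4a4c and Ms4a7. Ms4a4c was at 882, 172 and 66.3 CPM there on days 3, 6 and 10, and Ms4a7 at 94.8, 165 and 195. Of the 8 members, 2 were higher and 6 lower on day 10 than on day 3, against 23% and 11% of all genes. The counts were also 2 and 6 on day 6 against day 3 (23.7% and 10% of all genes) and 0 and 4 on day 10 against day 6 (8.12% and 11.3%).

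The share of cells with a UMI, after thinning to 2000 UMIs a cell, put the 3 gates in the same order as the sums for Ms4a7 and Ms4a4c on each day. The order of the days could differ from that of the sums, as for Ms4a7 in the Ly6c2 gate. Ms4a7 was detected in 45.8%, 57.7% and 68.7% of C1qa gate cells on days 3, 6 and 10 and in 61.0%, 81.9% and 88.7% without thinning. In the Ly6c2 gate the thinned shares were 9.78%, 4.35% and 6.25%, and the unthinned shares 27.1%, 21.7% and 21.3%. In the Cd209a gate, whose cells were deeper (median 14263.5 to 18240 UMIs, against 8232 to 10939 in the C1qa gate), it was found in 0 of 129 thinned cells on day 3 (exact 95% upper limit 2.82%), 0 of 109 on day 6 (3.33%) and 1.19% on day 10, and in 1.55%, 5.50% and 2.98% without thinning. These limits are for cells with a UMI at the thinned depth and cover counting error only. On day 3 the Ly6c2 gate share (36 of 368 cells) had an interval of 6.95% to 13.3%, above that of the Cd209a gate, whereas on days 6 and 10 it rests on 1 and 5 cells, with intervals that overlap those of the Cd209a gate. Ms4a4c was detected in 80.4%, 60.9% and 56.3% of Ly6c2 gate cells, in 59.3%, 10.5% and 2.45% of C1qa gate cells and in 72.1%, 41.3% and 47.6% of Cd209a gate cells. For Ms4a4c no gate of cells that lack the gene was large enough to give a background, since the lymphoid reference held 0, 1 and 1 cells and the mature dendritic cell reference 7, 9 and 7.

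Within the 369 Ly6c2 gate cells of day 3, Spearman's rho across cells was 0.56 for Ms4a4c with Ms4a6d, 0.54 for Ms4a6b with Ms4a6c, 0.50 for Ms4a4c with Ms4a6b and 0.24 for Ms4a7 with Ms4a14. In the 541 C1qa gate cells of day 10 the same pairs were at −0.03, 0.39, 0.21 and 0.35. Ms4a4c with Ms4a6d was at 0.66 in the C1qa gate of day 3 and at 0.11 in the Ly6c2 gate of day 10. Each value is a description across cells of 1 library that share depth. Over the 13 library-and-gate sums with at least 20 cells, the genes with profiles most like a member were ranked by Pearson r among 2084 genes, and the sums share libraries. For Ms4a7 they were Stab1 (0.98), a scavenger receptor, Mef2a (0.98), Mfsd1 (0.97), Itgb5 (0.97) and Pf4 (0.97), and for Ms4a14 the folate receptor gene Folr2 (0.94), Timp2 (0.94), Atp6v1d (0.93), Ctnnb1 (0.92) and Ctss (0.92). For Ms4a4c they were Phf11b (0.98), Ifi203 (0.98), Sp100 (0.97), Sp110 (0.97) and Mndal (0.96), and for Ms4a6b Tor3a (0.97), Bst2 (0.96), Ly6e (0.95), Dhx58 (0.95) and Trim30a (0.95). For Ms4a6c the first 3 were Hmox2 (0.96), Shisa5 (0.94) and Ms4a6b itself (0.93), for Ms4a6d Rnpep (0.96), Tmbim6 (0.96) and Rab5c (0.95), for Ms4a8a Gm21188 (0.95), Chil3 (0.94) and Ifi207 (0.93), and for Ms4a4a the Fc receptor gene Fcgr3 (0.97), then Apobec1 (0.95).

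Several of the genes nearest to Ms4a4c and Ms4a6b are known as interferon-induced, and a list of 10 interferon-induced genes was measured beside them. Its sum in the Ly6c2 gate was 2480, 1941 and 767 CPM on days 3, 6 and 10, in the C1qa gate 2283, 831 and 167, and in the Cd209a gate 1128, 429 and 275. In the double gate of day 3 it was 3851. On day 10 against day 3, 10 of 10 were at least 1.5-fold lower in each of these 3 gates, with median log2 ratios of −1.56, −3.57 and −1.90, against 18.8%, 15.6% and 10.4% of all genes that were lower there. In the C1qa gate against the Ly6c2 gate, 6 of 10 were called lower by edgeR (5.75% of all genes), among them Isg15 (−1.44, adjusted p = 0.021) and Mx1 (−1.41, adjusted p = 0.0436), and 0 higher. Their part in the values of Ms4a4c and Ms4a6b was not tested.

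Of 12 other genes of the family, 3 passed the filter on low counts. Ms4a4b, the neighbour of Ms4a4c, was at 41.6, 92.8 and 27.9 CPM in the Ly6c2 gate and at 32.03, 4.46 and 1.85 in the C1qa gate, and was called lower in the latter (−2.81 ± 0.66, edgeR adjusted p = 0.0164). The day 6 Ly6c2 value comes from the 23 cells described above. Tmem176a and Tmem176b, more distant relatives, were called higher in the Cd209a gate than in the Ly6c2 gate, as were 7.89% of all genes (2.35 and 2.02 on the log2 scale, edgeR adjusted p = 0.000219 and 0.000978), a direction that no member but Ms4a4c took against either other gate with a call. Ms4a1 had 0, 1 and 0 UMIs in kept cells on days 3, 6 and 10, and Ms4a2 had 0.

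Among 10 measured genes of the receptors and adaptors around MS4A proteins, 1 was called higher and 2 lower in the C1qa gate than in the Ly6c2 gate by edgeR, against 5% and 5.75% of all genes. The one called higher was Trem2 (1.84 ± 0.28, adjusted p = 0.00138), and those called lower were the signalling adaptors Tyrobp (−0.85, adjusted p = 0.00828) and Fcer1g (−0.64, adjusted p = 0.0306). In the Cd209a gate against the C1qa gate 2 were called higher and 5 lower, against 16.4% and 17.6% of all genes, the latter including Trem2 (−5.77) and Fcgr3 (−2.38). Tnfrsf18, which encodes GITR, a costimulatory receptor of T cells that the Ms4a4b product is known to accompany, was among those called higher (4.48). Its log2 value between the C1qa and Ly6c2 gates had a standard error of 1.02, so it was poorly measured outside the Cd209a gate. Whether Tnfrsf18 passed the filter on low counts only through the Cd209a gate was not tested, so its call is no support. Median log2 values of the 10 genes were −0.43, −0.34 and −0.43 in the C1qa against Ly6c2, Cd209a against Ly6c2 and Cd209a against C1qa contrasts, where those of all genes were 0.03, 0.02 and 0.00.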

How the data were processed

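The deposited matrices hold raw UMI counts per gene and barcode, which the authors did not normalise, per the file headers. The submitters' processing notes name Cell Ranger 3.0.2 and the mm10 build, and no annotation release. GENCODE vM21 gave coordinates, and 30934 of 31053 gene IDs were found in it. UMIs were summed per library and gate and scaled to counts per 1000000 (CPM). Ratios carry exact 95% intervals, need 20 UMIs over both sums, set a sum under 3 UMIs to 3, and count as higher or lower from 1.5-fold. Gates were tested with edgeR 4.0.16 in R 4.3.3 (quasi-likelihood, TMM factors, filterByExpr, library as a block, called at adjusted p under 0.05) on 10 sums of at least 20 cells, in 1 fit of 4 gates. DESeq2 1.42.0, other filters, gates, scalings and left-out libraries were alternatives. Scrublet, run through scanpy 1.11.5, marked 23 of 2860 cells, which were kept. On simulated data for the C1qa against Ly6c2 contrast over 9869 genes, the test recovered 30 of 100 genes changed 2-fold and 74 of 100 changed 4-fold, with 10 false calls. The simulated means held no gate difference apart from these changed genes, unlike the real data, so recovery and false calls there can differ. Splice forms cannot be told apart. Named genes are the 8 members, the gate genes, the 5 genes most like each member in profile and, from the lists, those with the largest differences. The members and all lists were chosen with earlier results of these data known. Promoter sequences are from RefSeq, and proteins are not described here.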

Additional observations from a re-analysis of the deposited data

Results flagged for a closer look

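The contrast of the C1qa gate with the Ly6c2 gate turned direction between days for Ms4a6d: the log2 ratio was −0.43 on day 3, 0.46 on day 6 and 0.83 on day 10. Each value is 1 library, and the difference between days was not tested. Ms4a6c on day 10 against day 6 had a log2 ratio of −0.45 in the C1qa gate and 0.17 in the Cd209a gate, and that difference was not tested either.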

How the results depend on the processing

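The gates were paired by library in the main test, through the library block, and no pairing of samples between days exists, with 1 library per day. No result reversed its direction among the called values. Of 1070 recomputed day ratios of members 932 moved by less than counting error. Of 601 recomputed gate tests 572 kept their side of the threshold, 22 lost it and 7 gained it. The shares of cells with a UMI depended most on the processing. Of 144 shares recomputed at 4000 UMIs or without thinning, 103 moved outside their interval. The calls of Ms4a7 between the C1qa gate and the Ly6c2 or Cd209a gate, and those of Ms4a4a with the Cd209a gate, held under all 16 alternatives. Those with the Cd209a gate carry the limit given above, since both genes passed the filter on low counts through the other gates. Ms4a6c was called higher in the Cd209a gate than in the C1qa gate under 2 of 16 alternatives, among them gates at 1 UMI (edgeR adjusted p = 0.0206). It was called lower in the Cd209a gate than in the Ly6c2 gate with only those gates fitted (edgeR adjusted p = 0.0425). The Ms4a7 difference between the double and Ly6c2 gates was called with gates at 1 UMI (adjusted p = 0.0308) and without the low-count filter (0.00748), and that setting also called Ms4a7 (2.7e-05) and Ms4a4c (8.75e-10) between the double and C1qa gates. The cause of these changes was not tested.

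Counts of members at least 1.5-fold higher moved as follows. With the deepest 2% of cells left out, 1 member was higher on day 10 than on day 6 over all kept cells, in the C1qa gate and in the Cd209a gate, where 0 had been. In the Cd209a gate it was also 1 with gates at 1 UMI, at 4, 10 and 4 UMIs and per 10000. In the C1qa gate 2 were higher on day 6 than on day 3 with a mitochondrial limit of 20% or no cell filter. In cells of no gate it was 1 on day 6 against day 3 with a limit of 5% or gates at 1 UMI, and 1 on day 10 against day 6 with gates at 1 UMI, gates per 10000 or each cell weighted equally, while 2 were lower without a cell filter.

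Over all genes, the C1qa gate had 516 called higher and 593 lower than the Ly6c2 gate. Higher calls were 323 with DESeq2, 776 without the filter on low counts, 208 with only those gates fitted and 158 to 393 leaving out a library. Lower calls were 249 without the library block, 212 with only those gates fitted and 179 to 464 leaving out a library. Leaving out a library gave, for the Cd209a gate, 298 to 590 higher (of 814) and 602 to 816 lower (of 1045) against the Ly6c2 gate, and 983 to 1277 higher (of 1690) and 1101 to 1534 lower (of 1812) against the C1qa gate. The double gate against the Ly6c2 gate had 3 called higher and 0 lower. These were 16 and 1 with gates at 1 UMI, 6 higher at 4, 10 and 4 UMIs, 5 and 8 with DESeq2, 24 and 39 without the low-count filter, and 3 to 4 higher leaving out a library. Against the C1qa gate it had 2 higher and 0 lower, which were 6 and 3 with gates at 1 UMI, 6 and 4 with DESeq2, 71 and 73 without the filter, 1 higher without the block, 1 lower with a mitochondrial limit of 20%, no cell filter, gates at 4, 10 and 4 UMIs or gates per 10000, and 2 to 7 higher and 0 to 4 lower leaving out a library. Ms4a14, Ms4a4a, Ms4a7 and Ms4a8a (13 UMIs in the Cd209a gate of day 6) had sums under 20 UMIs outside the C1qa gate. In the C1qa gate of day 3, Ms4a14 had 11 UMIs and Ms4a4a 15. Depth limits the ratios that use these sums.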

Other observations

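Barcodes left out by the cell filter (572, 598 and 847 on days 3, 6 and 10) still held Ms4a UMIs. Ms4a7 was at 72.1, 209 and 256 CPM in them, Ms4a4c at 443, 49.8 and 37.7, Ms4a6d at 213, 154 and 116, and Ms4a14 at 13.9, 31.8 and 41.5. The order of the days was the same as in the kept cells for all of these genes except Ms4a6d, which in kept cells was at 800, 377 and 379.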
